A study of Saccharomyces cerevisiae with 12 samples.

Results

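The 53 genes described here code for proteins of the small subunit of the cytosolic ribosome of Saccharomyces cerevisiae, out of 5449 yeast genes measured. They were chosen by symbol, as every gene named RPS followed by a number together with ASC1. The rule uses no measured value, though earlier results of these data were known when it was set. The gene table of the reference holds 57 such genes, of which 4 had no probe set listed under their name and are not analysed here. Of the 53, 45 carry a final A or B in the symbol and 8 are single-copy genes (RPS2, RPS3, RPS12, RPS13, RPS15, RPS20, RPS31 and ASC1).

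The small subunit binds messenger RNA, scans it for a start codon and checks the match between codon and transfer RNA. In budding yeast most ribosomal proteins are made from paired genes left by an ancient genome duplication, whose products are identical or nearly so. Their transcription is driven by Rap1, Fhl1, Ifh1 and Sfp1, runs high in growing cells under TOR and protein kinase A signalling, and is turned down in many stresses.

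The groups were 4 strains, hac1∆(hsf1), WT(hsf1), hac1∆ and WT, each with 3 biological replicates on Affymetrix Yeast 2.0 arrays. All 12 cultures were in early exponential growth at 30 C in synthetic medium without uracil and received 2.5 mM dithiothreitol (DTT) for 2 h, so no comparison shows the effect of DTT. DTT disturbs disulfide bonding in the endoplasmic reticulum, and HAC1, deleted in the hac1∆ strains, codes for the transcription factor of the yeast unfolded protein response. HSF1 codes for the heat shock transcription factor, but what the addition (hsf1) stands for is not given in the sources used here, and it is used as a strain name. The labels give neither the parent strain nor the number of clones.

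Signals are the deposited log2 values, in which a difference of 1 is a doubling. Within a strain, arrays correlated at 0.988 to 0.999 across genes (Pearson), and HAC1 was below background on all 3 arrays of hac1∆(hsf1) and all 3 of hac1∆. Background was a log2 signal of 5.49, the 95th percentile of 1746 probe sets for genes of another yeast on the same array, and no small-subunit gene averaged below it. HSF1 stood at 10.54, 10.81 and 10.66 in hac1∆(hsf1), 8.63, 8.51 and 8.41 in WT(hsf1), 7.75, 7.86 and 7.87 in hac1∆, and 8.08, 9.61 and 8.11 in WT. Replicate 2 of WT stood apart in HSF1 and was also the lowest WT array for 46 of the 53 small-subunit genes. Across all genes it correlated at 0.978, 0.973 and 0.973 with the hac1∆(hsf1) arrays, against 0.939 to 0.951 for WT replicates 1 and 3. It was thus nearer to that strain than the other WT arrays were. Results against WT are given with and without WT replicate 2 where it matters. The arrays report a gene relative to the other RNAs, and a change in total RNA per cell could not be told apart from a change of these genes.

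The small-subunit genes moved almost as a block and in opposite directions in WT(hsf1) and hac1∆(hsf1). By strain mean, 48 of the 53 genes were ordered WT(hsf1), hac1∆, WT, hac1∆(hsf1) from highest to lowest. The 5 others were RPS0A, which had its lowest mean in WT, and RPS10A, RPS10B, RPS23A and RPS29A, whose means were lower in hac1∆ than in WT. The steps in this order were unequal: hac1∆ and WT lay close together, and many genes did not differ between them beyond the replicate spread. Measured from each gene's own mean over the 12 arrays, the median deviation was -0.73, -0.79 and -0.80 on the hac1∆(hsf1) arrays, 0.94, 0.97 and 0.94 on the WT(hsf1) arrays, 0.12, 0.01 and -0.01 on the hac1∆ arrays, and -0.19, -0.39 and -0.10 on the WT arrays. The lowest WT value belonged to replicate 2.

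**Figure D1:**
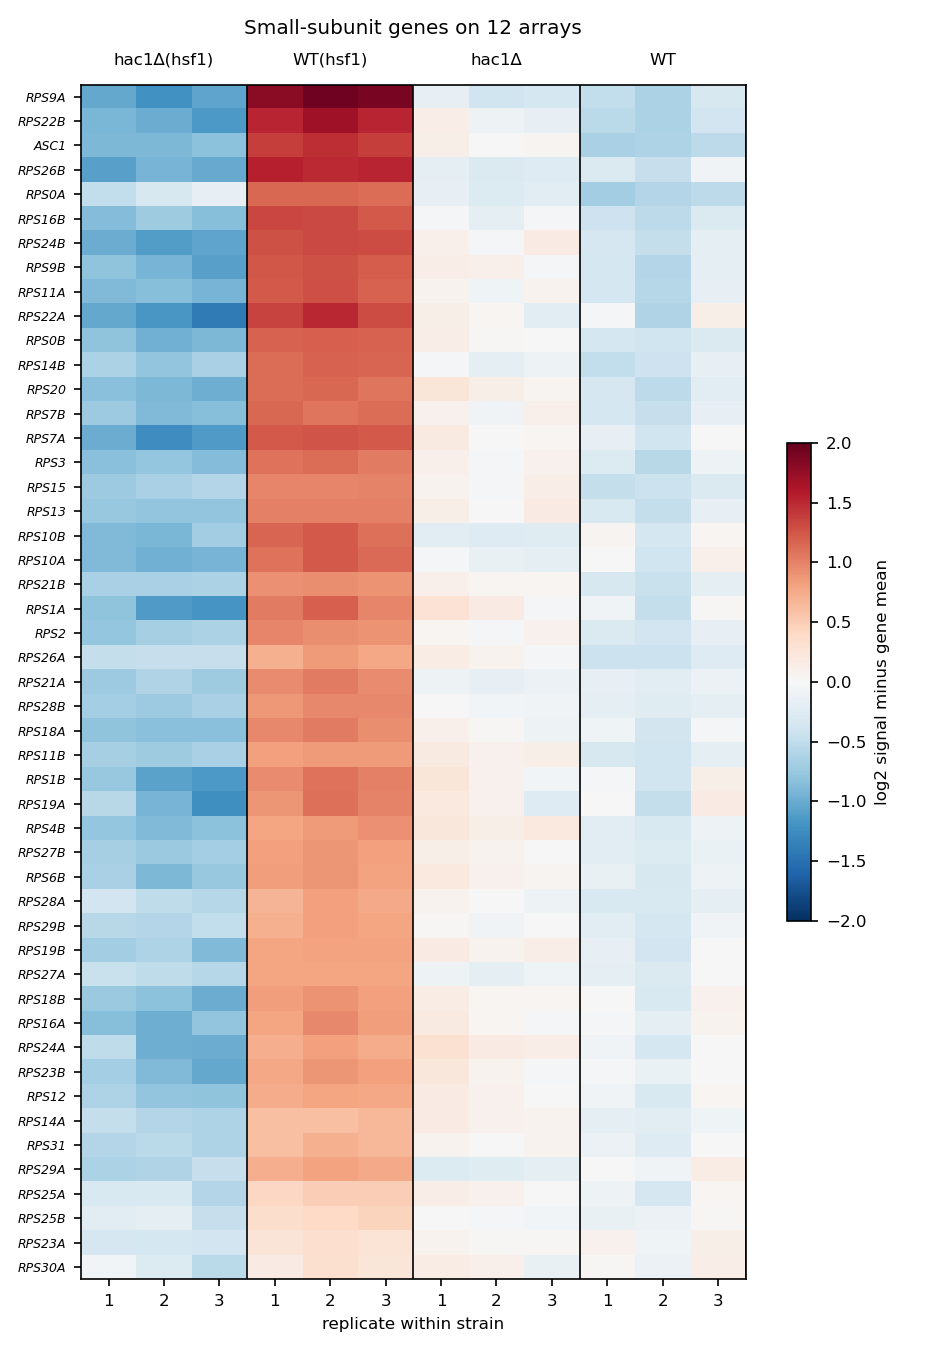
Log2 signal minus the gene's mean over 12 arrays, as colour, for 49 of the 53 small-subunit genes (rows, sorted by their WT(hsf1) minus WT change) on every array (columns, 3 replicates per strain). The WT(hsf1) block is high in every row and the hac1∆(hsf1) block is low in nearly every row, while hac1∆ and WT lie between them; RPS0A is the row where hac1∆(hsf1) is palest among the strongly changing genes.

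Relative to other RNAs, the small-subunit genes read higher in WT(hsf1) than in WT. Of the 53 genes, 52 rose and none fell in limma's test with Benjamini-Hochberg adjustment over all 5449 genes at a threshold of 0.05, where 32.3% of all genes were called higher and 33.8% lower. The median change was 1.14 on the log2 scale (2.21-fold), with a range of 0.23 to 2.36, beside a median of -0.01 over all genes. On all 53 genes every WT(hsf1) array read higher than every WT array, which held for 34.5% of all genes. Without WT replicate 2 the count stayed at 52 and the median change was 1.10.

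The size of the rise went with signal level. Across the 53 genes, mean signal and change correlated at -0.70 (Pearson) and -0.64 (Spearman), so dimmer genes rose more. For the 39 genes read on probe sets with the suffix _at the values were -0.65 and -0.59. The cause was not tested, and the ranking of genes below carries this dependence. Among the genes that rose most was RPS9A, for a body protein that binds ribosomal RNA early in assembly. Its log2 signal was 9.45, 9.59 and 9.55 in WT(hsf1) and 7.15, 7.02 and 7.33 in WT, a change of 2.36 ± 0.09 (SE; 5.15-fold; limma adjusted p = 4.48e-10). The WT(hsf1) and WT arrays were far apart, with the spread inside each strain much smaller than the gap. RPS22B, for another body protein, read 10.28, 10.45 and 10.29 in WT(hsf1), against 8.23, 8.13 and 8.38 in WT (2.09 ± 0.09, 4.27-fold, limma adjusted p = 1.01e-09). ASC1, the yeast RACK1 protein, sits on the head as a scaffold for signalling proteins and for the response to stalled ribosomes. Its signal was 11.1, 11.18 and 11.09 in WT(hsf1) and 9.07, 9.09 and 9.18 in WT (2.01 ± 0.05, 4.03-fold, limma adjusted p = 3.05e-11). Next came RPS26B at 1.79 ± 0.08, whose protein lines the messenger RNA exit channel, and RPS0A at 1.74 ± 0.07, from the back of the body.

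At the other end stood RPS30A, for a small body protein near the messenger RNA entry channel, the 1 gene that did not pass. It read 10.94, 11.1 and 11.03 in WT(hsf1) and 10.8, 10.67 and 10.91 in WT, a difference of 0.23 ± 0.11 (limma adjusted p = 0.0855). Every WT(hsf1) array read above every WT array, though the gap between the nearest was narrow, and the gene was called when hac1∆(hsf1) replicate 1 or 3 was left out of the shared variance. RPS23A (0.25 ± 0.05), for a protein of the decoding centre, and RPS25B (0.47 ± 0.07) and RPS25A (0.60 ± 0.09), for a head protein used in internal initiation, were also among the genes that rose least. RPS30A and RPS23A were read on probe sets that can also bind other transcripts, as described further on. RPS31, whose product is made as a fusion with ubiquitin, rose by 0.78 ± 0.06 (1.72-fold, limma adjusted p = 1.46e-07), with 11.49, 11.59 and 11.54 in WT(hsf1) and 10.77, 10.62 and 10.89 in WT.

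In cells without HAC1 the small-subunit genes read lower, relative to other RNAs, in the strain named (hsf1). Between hac1∆(hsf1) and hac1∆, 52 of the 53 genes fell and none rose, where 30.7% of all genes were called lower and 26.5% higher. The median change was -0.82 (1.76-fold lower), with a range of -1.20 to -0.11, beside -0.01 over all genes. For 51 genes every hac1∆(hsf1) array read lower than every hac1∆ array, which held for 33.4% of all genes. These strains share no array with the WT(hsf1) and WT comparison.

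RPS7A, for a body protein that is ubiquitinated when ribosomes stall, fell most. It read 8.64, 8.39 and 8.5 in hac1∆(hsf1) and 9.81, 9.63 and 9.68 in hac1∆ (-1.20 ± 0.09, 2.29-fold lower, limma adjusted p = 5.26e-07). RPS22A read 8.07, 7.93 and 7.69 in hac1∆(hsf1), against 9.22, 9.13 and 8.88 in hac1∆ (-1.18 ± 0.16, limma adjusted p = 4.67e-05). Its replicates were more spread than those of RPS7A, yet the strains stayed well apart. RPS1A (-1.18 ± 0.13), for a platform protein, and RPS24B (-1.13 ± 0.07), for a body protein, fell to a similar degree. ASC1 fell by 0.93 ± 0.05 (1.90-fold lower, limma adjusted p = 4.52e-08), with 8.81, 8.82 and 8.89 in hac1∆(hsf1) and 9.83, 9.7 and 9.77 in hac1∆. RPS31 stood at 10.3, 10.35 and 10.27 in hac1∆(hsf1) and 10.95, 10.88 and 10.95 in hac1∆ (-0.62 ± 0.06, limma adjusted p = 3.56e-06).

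RPS0A was the gene that did not pass in this comparison. It read 8.8, 8.98 and 9.13 in hac1∆(hsf1) and 9.13, 9.02 and 9.09 in hac1∆, with overlapping arrays and a difference of -0.11 ± 0.07 (limma adjusted p = 0.223). Only without hac1∆(hsf1) replicate 3, its highest array, was it called, at -0.19. Small falls were also measured for RPS25B (-0.27 ± 0.07), RPS30A (-0.32 ± 0.11), RPS29A (-0.34 ± 0.06), for a zinc-binding head protein, RPS23A (-0.39 ± 0.05) and RPS27A (-0.39 ± 0.07), for a zinc-binding platform protein. The RPS30A call (limma adjusted p = 0.0252) rested on single arrays, since it was lost without hac1∆ replicate 1 or 2 and without hac1∆(hsf1) replicate 2 or 3.

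**Figure D2:**
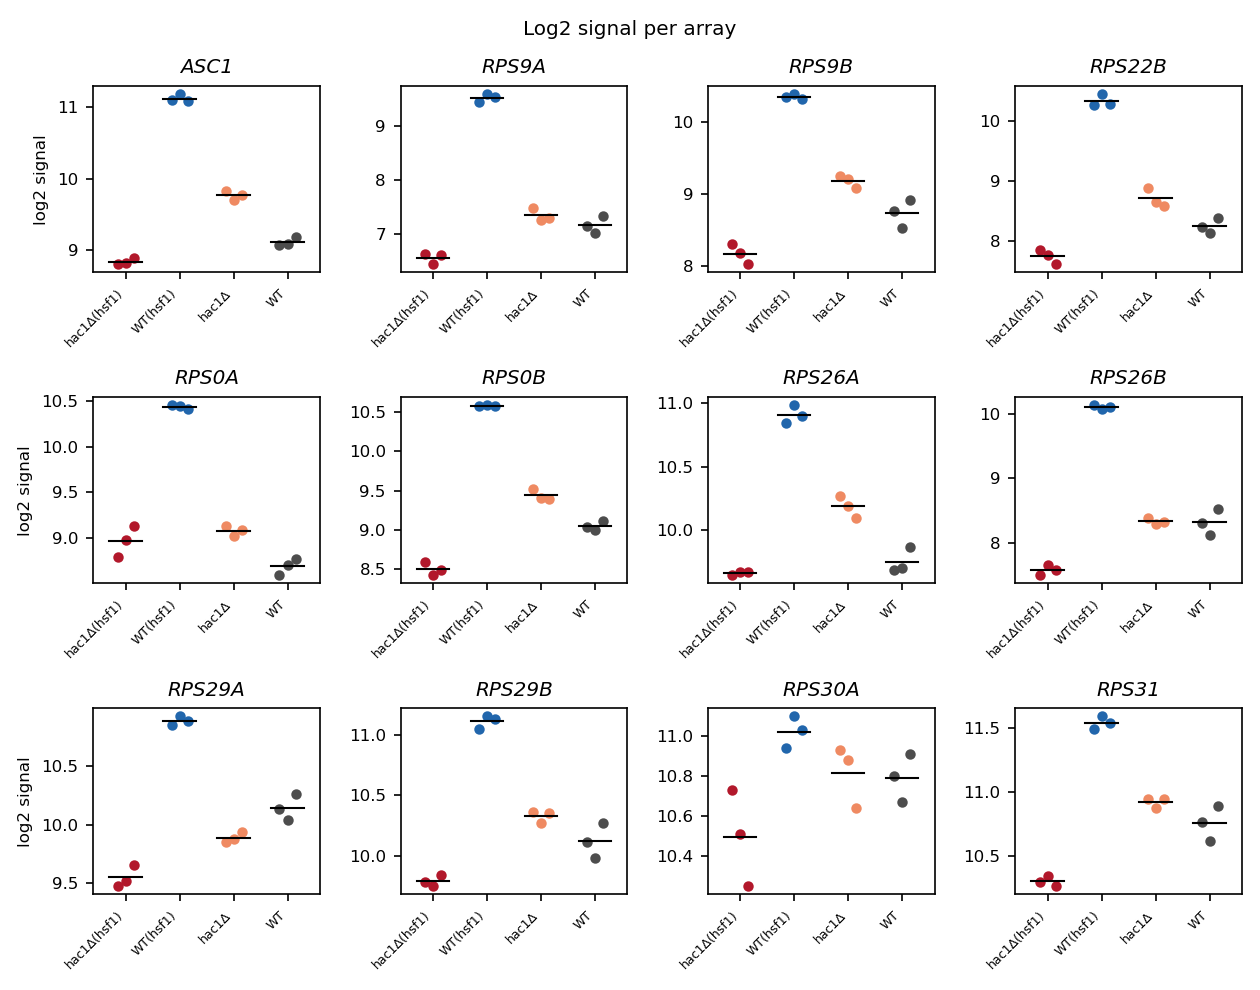
Log2 signal (vertical axis, own scale in each panel) of 12 small-subunit genes on every array (points, 3 per strain) with the strain mean (line); strains run hac1∆(hsf1), WT(hsf1), hac1∆, WT from left to right. WT(hsf1) is highest in every panel; RPS0A in hac1∆(hsf1) overlaps hac1∆, whereas RPS0B, its paralog, reads 8.5 in hac1∆(hsf1) and 9.44 in hac1∆ on average.

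The difference between these changes was tested directly as an interaction, the change in cells without HAC1 minus the change in cells with it. Whether (hsf1) stands for the same alteration in both strains is not given. HSF1 averaged 10.67 in hac1∆(hsf1) and 7.83 in hac1∆, beside 8.52 in WT(hsf1) and 8.6 in WT. That WT mean was raised by replicate 2, at 9.61, while WT replicates 1 and 3 read 8.08 and 8.11. The WT(hsf1) arrays, at 8.63, 8.51 and 8.41, lay above those 2 arrays and below replicate 2. The test therefore cannot show that a single alteration acted differently without HAC1. All 53 genes were lower in the interaction, where 34% of all genes were called lower. The median was -1.95 and the range ran from -3.15 ± 0.12 for RPS9A to -0.55 ± 0.16 for RPS30A (limma adjusted p = 4.43e-10 and 0.007). RPS22B (-3.06), ASC1 (-2.94) and RPS24B (-2.77) were near RPS9A. The smallest beside RPS30A were RPS23A (-0.64), RPS25B (-0.74), RPS25A (-1.07) and RPS29A (-1.08), and RPS31 stood at -1.40. RPS0A reached -1.85 almost wholly through its change between WT(hsf1) and WT. The gene ranks of the effects were not mirror images: RPS9A changed by -0.79 in cells without HAC1 and by 2.36 in cells with it, whereas RPS7A changed by -1.20 without HAC1 and 1.43 with it.

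**Figure D3:**
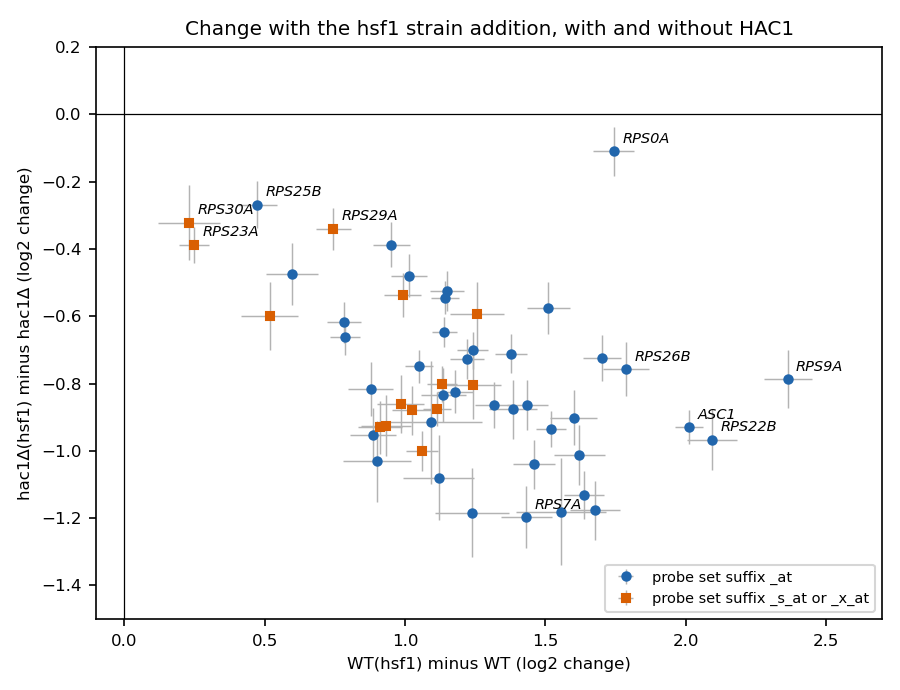
Change between hac1∆(hsf1) and hac1∆ (vertical axis, log2) against change between WT(hsf1) and WT (horizontal axis, log2) for the 53 small-subunit genes, with SE bars; colour and shape give the suffix of the probe set. All points lie right of 0 and below 0; RPS0A sits alone near the horizontal line at 1.74 and -0.11, and RPS9A lies farthest right at 2.36.

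Loss of HAC1 alone went with a small rise. In hac1∆ against WT, 32 genes rose, 1 fell and 20 did not pass, where 28.4% of all genes were called higher and 22.3% lower. The median change was 0.27 (1.20-fold), beside 0.03 over all genes. Every hac1∆ array was above every WT array for 28 genes, which held for 34.2% of all genes, and below for 1, which held for 25.9%. Without WT replicate 2, 27 genes were higher, 3 were lower and the median was 0.21. RPS7A, RPS14B, RPS24A, RPS29B and RPS31 (0.17 ± 0.06, limma adjusted p = 0.0347) each lost their call without WT replicate 2 and without hac1∆ replicate 1. All of them but RPS24A also lost it without WT replicate 1, all but RPS14B without hac1∆ replicate 3, and RPS24A without hac1∆ replicate 2.

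ASC1 rose most in this comparison, with 9.83, 9.7 and 9.77 in hac1∆ and 9.07, 9.09 and 9.18 in WT (0.65 ± 0.05, 1.57-fold, limma adjusted p = 7.07e-07). The arrays of the strains were clearly separate. RPS20 (0.49 ± 0.07), a head protein that is marked with ubiquitin when ribosomes collide, RPS22B (0.47 ± 0.09), RPS15 (0.46 ± 0.06), a head protein whose tail reaches toward the decoding site, and RPS9B (0.45 ± 0.09) came next. RPS29A went the other way and was called lower, at 9.85, 9.88 and 9.94 in hac1∆ and 10.13, 10.04 and 10.26 in WT (-0.25 ± 0.06, 1.19-fold lower, limma adjusted p = 0.00536). The pair for the head protein Rps10 also lay at or below 0, RPS10B at -0.15 ± 0.10 and RPS10A at -0.02 ± 0.10 (limma adjusted p = 0.206 and 0.868). Both were called lower without WT replicate 2, at -0.29 and -0.17. RPS23A (0.00 ± 0.05) and RPS26B (0.02 ± 0.08) did not pass.

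Between the strains named (hsf1), the one without HAC1 read lower for every gene. Between hac1∆(hsf1) and WT(hsf1) all 53 genes fell, where 35.8% of all genes were called lower, with a median of -1.69 (3.22-fold lower). RPS9A showed the widest gap, at 6.63, 6.44 and 6.6 in hac1∆(hsf1) and 9.45, 9.59 and 9.55 in WT(hsf1) (-2.97 ± 0.09, 7.84-fold lower, limma adjusted p = 3.22e-11). RPS22B (-2.60), RPS22A (-2.59) and RPS26B (-2.53) followed, and ASC1 fell by 2.29 ± 0.05. The narrowest gaps were those of RPS30A (-0.53), RPS23A (-0.64), RPS25B (-0.68) and RPS25A (-0.87), with RPS31 at -1.23.

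Against WT, hac1∆(hsf1) was lower for 51 genes and higher for 1, where 28.1% of all genes were called lower and 29% higher. The median was -0.52 (1.44-fold lower) with all arrays and -0.62 without WT replicate 2. RPS22A (-1.04 ± 0.16), RPS7A (-0.94 ± 0.09), RPS1B (-0.88 ± 0.13), RPS1A (-0.87 ± 0.13) and RPS10A (-0.83 ± 0.10) were lowest. RPS0A was the exception, higher at 8.8, 8.98 and 9.13 in hac1∆(hsf1) than at 8.6, 8.71 and 8.77 in WT (0.28 ± 0.07, 1.21-fold, limma adjusted p = 0.00576), with no overlap of the arrays. RPS26A did not pass (-0.09 ± 0.06, limma adjusted p = 0.205). The other small differences were RPS25B (-0.21), RPS28A (-0.22), RPS15 (-0.26), ASC1 (-0.27) and RPS25A (-0.27), and RPS31 stood at -0.45. The calls of RPS25A, RPS25B and RPS30A were lost without WT replicate 3 and without hac1∆(hsf1) replicate 3. Those of RPS25A and RPS30A were also lost without WT replicate 1, and that of RPS30A without hac1∆(hsf1) replicate 2.

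The genes were also grouped by position in the subunit, by relatives in bacteria and by copy number. The 22 genes for head proteins had a median of 1.05 between WT(hsf1) and WT and the 31 genes for body and platform proteins 1.24, with medians of -0.76 and -0.86 between hac1∆(hsf1) and hac1∆. Between hac1∆ and WT, 11 of the 22 head genes rose and 1 fell, with a median of 0.18. Of the 31 body and platform genes 21 rose, with a median of 0.32. Of all genes, 28.4% were called higher and 22.3% lower in that comparison. The 23 genes for proteins with relatives in bacteria stood at 1.38 and the 30 without at 1.12 in the first comparison, and at -0.83 and -0.81 in the second. The 8 single-copy genes had medians of 1.35 and -0.84, beside 1.14 and -0.80 for the 45 others. Between hac1∆ and WT, 7 of the 8 single-copy genes rose, with a median of 0.38, and 25 of the 45 others, with a median of 0.26. The share of all genes called higher there was again 28.4%. These counts and medians are given as a description, without a test between the lists and without allowance for signal level. Calls between hac1∆ and WT also depended on single arrays.

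Compared with other ribosomal protein genes, the small-subunit genes moved much like those of the large subunit. For 75 large-subunit genes the medians were 1.22 between WT(hsf1) and WT, -0.86 between hac1∆(hsf1) and hac1∆, and 0.28 between hac1∆ and WT. The symbol rule for them also took RPP1, which codes for a subunit of ribonuclease P and is left out of these 3 values. The 30 genes for the small subunit of the mitochondrial ribosome, which translates in the organelle, had medians of 0.77, -0.12 and 0.10 in the same comparisons. All 30 of them rose between WT(hsf1) and WT, where 32.3% of all genes were called higher. Between hac1∆(hsf1) and hac1∆, 10 fell, a share near the 30.7% of all genes called lower, 2 rose and 18 did not pass. Over the 12 arrays, the genes most like the mean of the 53 small-subunit genes were RPL2B (Pearson r = 0.9986), RPL33A, RPL22A (0.9984 each), RPL8B (0.9976) and RPL19B (0.9974), all of the large subunit. Those arrays share 4 strain means, so the coefficients describe the strain pattern and carry no p.

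The probe sets themselves matter for a family with near-identical pairs. On this array a suffix of _at marks a probe set designed for a single transcript, _s_at one whose probes all match more than 1 transcript, and _x_at one in which some probes do. The highest-mean probe set of the 53 genes ended in _at for 39, in _s_at for 9 and in _x_at for 5. RPS4B, RPS6B and RPS30A, whose paralogs have no probe set under their own name, were each read on an _s_at probe set, so these signals may hold both members of the pair. Genes read on _at probe sets had a median of 1.24 between WT(hsf1) and WT, and those read on shared ones 0.99; between hac1∆(hsf1) and hac1∆ the medians were -0.82 and -0.80.

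For 13 genes a second probe set allowed the reading to be repeated. Between WT(hsf1) and WT the change was larger on the _at probe set for 8 of the 13, with medians of 1.15 and 0.99. Between hac1∆(hsf1) and hac1∆ it was larger on the _at probe set for 11, with medians of -0.84 and -0.71. For RPS18B the readings between WT(hsf1) and WT were 1.58 on _at and 0.93 on _s_at, and for RPS23A 0.62 and 0.25. RPS24A went the other way, with 0.90 on _at and 1.25 on _s_at. No gene changed direction between its probe sets in these 2 comparisons.

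**Figure D4:**
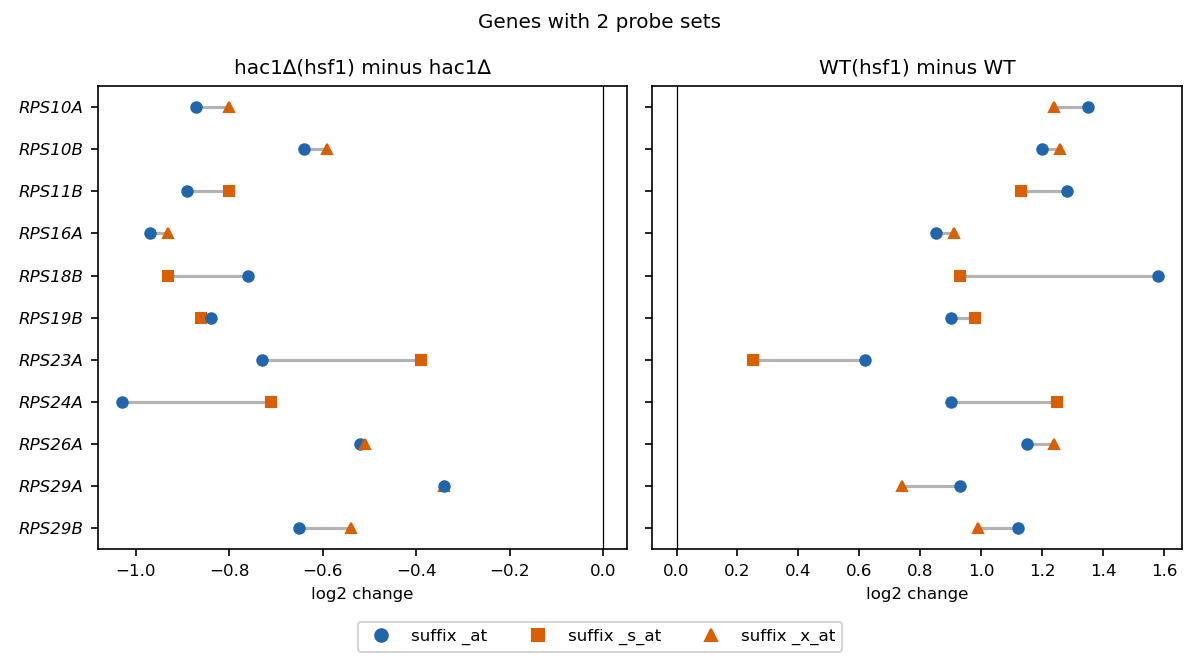
Log2 change read on each of the 2 probe sets of 11 small-subunit genes, between hac1∆(hsf1) and hac1∆ (left) and between WT(hsf1) and WT (right); circles are _at, squares _s_at and triangles _x_at probe sets. RPS18B shows the widest gap on the right, 1.58 on _at and 0.93 on _s_at.

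Paralogs were compared by the difference A minus B within each array, which removes what both genes share. Levels of different probe sets were not tested against each other, only how this difference moved between strains. Of 21 pairs with both members measured, 18 differed among the 4 strains in limma's F test. The adjustment ran over all 57 A and B pairs of the array, of which 89.5% were called. Those 57 were the 21 pairs themselves, 29 large-subunit pairs and only 7 others, so the shares of all pairs mostly describe ribosomal protein genes. Unequal changes were called for 14 of the 21 pairs between WT(hsf1) and WT, where 71.9% of all pairs were called. The count was 12 between hac1∆(hsf1) and hac1∆ (45.6% of all pairs) and 6 between hac1∆ and WT (24.6%). The 12 became 7 without hac1∆ replicate 1 or 2, and the 6 became 3 without WT replicate 3 and 11 with array weights. The counts lie near the shares of all pairs and say nothing particular about the small subunit. RPS1, RPS10 and RPS19 did not pass the F test. The size was modest, with a median absolute inequality of 0.25, 0.21 and 0.14 in these comparisons. In both hsf1 comparisons the members of all 21 pairs had changes of the same sign.

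RPS26 was the most unequal pair by the F test (F = 122, limma adjusted p = 2.63e-08), and both members were read on _at probe sets. RPS26A minus RPS26B stood at 2.15, 2.01 and 2.09 in hac1∆(hsf1), 0.71, 0.90 and 0.80 in WT(hsf1), 1.88, 1.90 and 1.78 in hac1∆, and 1.40, 1.58 and 1.35 in WT. The WT(hsf1) arrays were lowest and the hac1∆(hsf1) arrays highest, and no strain overlapped another. RPS26A rose by 1.15 between WT(hsf1) and WT and RPS26B by 1.79, a difference of -0.64 ± 0.07 (limma adjusted p = 4.6e-06). Between hac1∆ and WT, RPS26A rose by 0.43 while RPS26B stood at 0.02, a difference of 0.41 ± 0.07 (limma adjusted p = 0.00135).

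In RPS9 the A gene changed more between WT(hsf1) and WT. The difference A minus B was -1.66, -1.74 and -1.43 in hac1∆(hsf1), -0.90, -0.80 and -0.77 in WT(hsf1), -1.76, -1.96 and -1.79 in hac1∆, and -1.62, -1.51 and -1.58 in WT. WT(hsf1) stood apart from the 3 other strains, by 0.74 ± 0.08 from WT (limma adjusted p = 4.35e-06). For RPS14, which codes for a platform protein known to repress the splicing of RPS14B, the A gene rose by 0.79 and the B gene by 1.51. That inequality was -0.72 ± 0.07 (limma adjusted p = 1.48e-06), with A minus B at 1.48, 1.44 and 1.52 in WT(hsf1) and 2.31, 2.21 and 2.09 in WT. In the absence of HAC1 the RPS14 pair showed no called inequality (-0.08 ± 0.07, limma adjusted p = 0.298). In RPS26, RPS9 and RPS14 the gene with the lower mean signal rose more between WT(hsf1) and WT. Those genes were RPS26B (8.58, beside 10.13 for RPS26A), RPS9A (7.65, beside 9.11) and RPS14B (8.41, beside 10.42). In RPS29 the gene with the higher mean, RPS29B (10.34, beside 10.12), rose more. Whether signal level bears on these inequalities was not tested.

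RPS0 was the pair that separated between hac1∆(hsf1) and hac1∆. RPS0A differed by -0.11, while RPS0B read 8.59, 8.43 and 8.49 in hac1∆(hsf1) and 9.52, 9.41 and 9.39 in hac1∆, a change of -0.94. The inequality of 0.83 ± 0.09 (limma adjusted p = 8.69e-06) was the largest among the 21 pairs in that comparison. A minus B stood at 0.21, 0.55 and 0.64 on the hac1∆(hsf1) arrays, above its value on each of the 9 others. RPS7 (-0.33 ± 0.06) and RPS27 (0.36 ± 0.06) were also unequal there (limma adjusted p = 0.000463 and 0.000422). RPS29 stood out between hac1∆ and WT, RPS29A falling by 0.25 and RPS29B rising by 0.21, a difference of -0.46 ± 0.05 (limma adjusted p = 5.44e-05). These 4 pairs were picked for mention after their values were seen. Both RPS29 genes were read on _x_at probe sets, and their _at probe sets gave -0.52 ± 0.08.

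RPS23 was also among the 5 most unequal pairs by the F test, but its A gene was read on an _s_at probe set. RPS23A minus RPS23B differed by -0.64 ± 0.07 between WT(hsf1) and WT, and by -0.26 ± 0.06 when only _at probe sets were used. For RPS18 the same step turned the difference round, to -0.44 on _at probe sets from 0.21 on the highest probe sets. With _at probe sets alone 20 pairs differed among the strains, and 14, 12 and 9 pairs were called in the comparisons of WT(hsf1) with WT, hac1∆(hsf1) with hac1∆, and hac1∆ with WT. RPS26, RPS9, RPS14 and RPS0 were read on _at probe sets for both genes and kept their values.

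**Figure D5:**
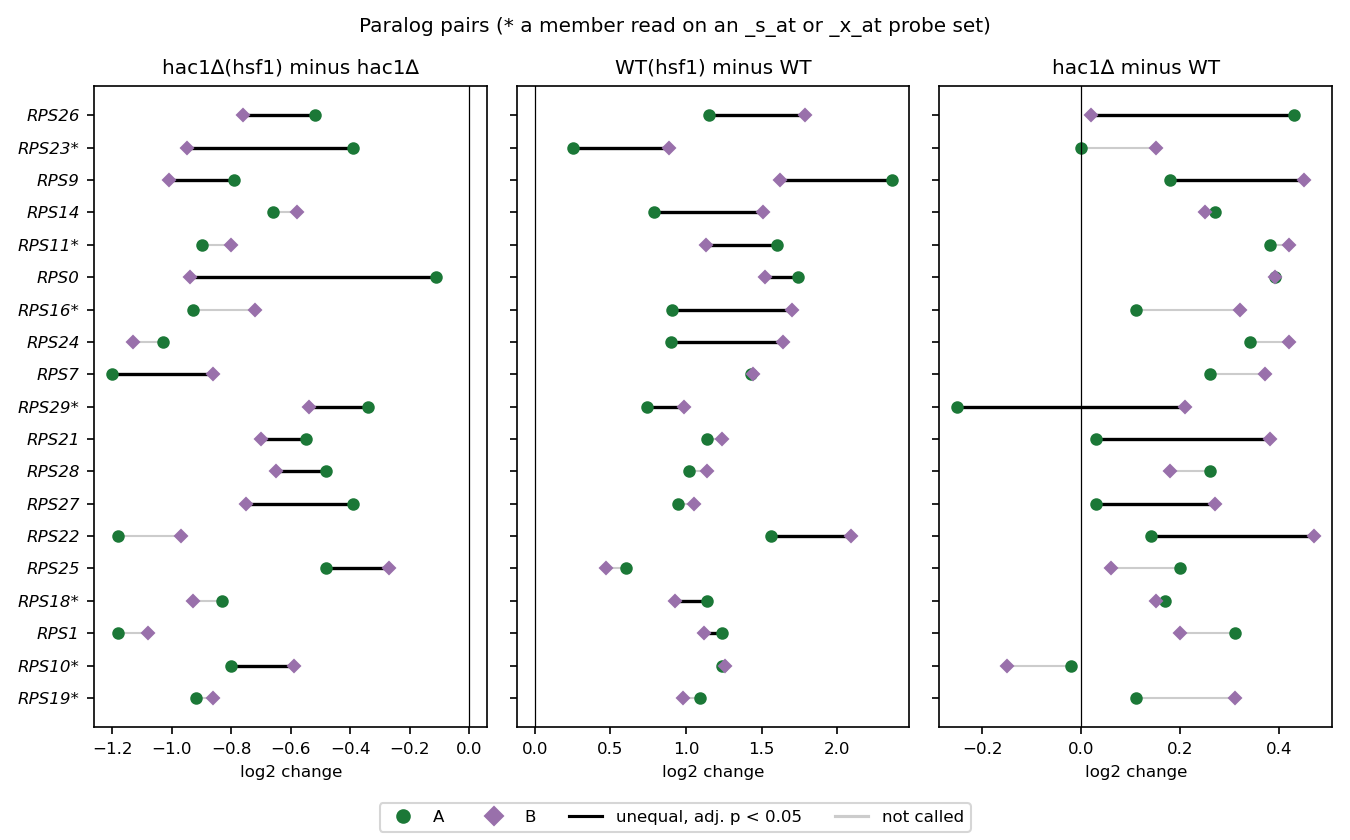
Log2 change of the A gene (circle) and the B gene (diamond) of 19 small-subunit pairs between hac1∆(hsf1) and hac1∆, WT(hsf1) and WT, and hac1∆ and WT, with pairs sorted by the F test and an asterisk where a member was read on an _s_at or _x_at probe set; black lines join unequal pairs (limma adjusted p under 0.05). RPS0 has the longest line on the left (-0.11 and -0.94) and RPS29 is the unequal pair whose members lie on either side of 0 on the right.

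Of 15 genes listed as regulators of ribosomal protein transcription, 14 were measured. Between WT(hsf1) and WT, 3 rose and 5 fell, where 32.3% of all genes were called higher and 33.8% lower, so the counts say nothing particular about the list. RAP1, for the factor that binds most of these promoters, rose by 0.36 ± 0.06 (limma adjusted p = 9.73e-05), and IFH1, for the coactivator held there by Fhl1, by 0.18 ± 0.06, a call lost without WT replicate 2 or WT(hsf1) replicate 2. TPK3, for a catalytic subunit of protein kinase A, also rose, by 0.18 ± 0.05. CRF1, for a corepressor that competes with Ifh1, was below background on all 3 WT(hsf1) arrays and was at least 2.11-fold lower there than in WT (limma adjusted p = 5.44e-07). DOT6 (-0.59 ± 0.05) and STB3 (-0.53 ± 0.08), for repressors of growth genes, and the kinase genes YAK1 (-0.84 ± 0.07) and TPK2 (-0.68 ± 0.10), the paralog of TPK3, fell. Without WT replicate 2, TOD6 (0.42), HMO1 (0.21) and TOR1 (-0.13) were called as well.

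Between hac1∆(hsf1) and hac1∆, 6 of the 14 rose and 1 fell, where 26.5% of all genes were called higher and 30.7% lower. TOD6, for a repressor related to Dot6, read 8.8, 9.12 and 8.44 in hac1∆(hsf1) and 6.83, 6.85 and 6.95 in hac1∆ (1.91 ± 0.18, limma adjusted p = 2.95e-06). CRF1 (0.56 ± 0.10), YAK1 (0.42 ± 0.07), TPK2 (0.35 ± 0.10), HMO1 (0.27 ± 0.09) and DOT6 (0.26 ± 0.05) also rose, and TOR1 fell by 0.15 ± 0.06. The HMO1 and TOR1 calls were each lost when single arrays were left out, HMO1 without hac1∆ replicate 2 or 3 or hac1∆(hsf1) replicate 1 or 3, and TOR1 without hac1∆ replicate 1 or 2 or hac1∆(hsf1) replicate 2 or 3. RAP1 (0.00 ± 0.06), FHL1 (-0.02 ± 0.06) and IFH1 (-0.08 ± 0.06) did not pass.

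Between hac1∆ and WT, 2 of the 14 rose and 3 fell, where 28.4% of all genes were called higher and 22.3% lower. SFP1, for an activator of these genes, rose by 0.31 ± 0.06 (limma adjusted p = 0.000937), and FHL1 by 0.19 ± 0.06, a call lost without WT replicate 3 or hac1∆ replicate 3. RAP1 (-0.27 ± 0.06, limma adjusted p = 0.00158), STB3 (-0.34 ± 0.08) and TOR1 (-0.24 ± 0.06) fell, so RAP1 was lower in the comparison in which 32 small-subunit genes were called higher. CRF1 (-0.15) was called as well without hac1∆(hsf1) replicate 3. Whether these RNA levels bear on the small-subunit genes was not tested.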

How the data were processed

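RNA from 12 cultures was hybridised to Affymetrix arrays. The values are log2 signals as deposited by the authors, made with PLIER per the submitters' processing notes; the sources used here give neither its version nor the scaling between arrays nor a log base, and log2 was inferred from the values (4.84 to 12.75, array medians 5.9952 to 6.0654). No further scaling, pseudocount or filter was applied. Probe sets were named through the platform annotation and the yeast gene table, and the highest-mean probe set stood for each of 5449 genes. The number of arrays limits the precision.

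limma 3.58.1 (R 4.3.3) fitted 1 mean per strain to all 12 arrays, checked on simulated data. Paralogs were tested on the difference A minus B within each array. An adjusted p under 0.05 is a call. SE is the moderated standard error from variance pooled over all strains. The genes and lists were chosen with earlier results of these data known. Named were the 5 genes with the largest and the 5 with the smallest or opposite change in each comparison, the 5 most unequal pairs, ASC1, RPS31, and exceptions; other pairs are marked where named. Some of these genes and pairs are not reported here singly, though every count and median includes them.

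Arrays were not treated as paired by replicate number in the main fit. Deviations of same-numbered arrays from different strains correlated at -0.25 to 0.50 (median 0.09). Those of different-numbered arrays correlated at -0.46 to 0.38 (median -0.01). The ranges overlap widely, so these values do not settle whether the numbers pair the arrays. Promoter, protein and transcript sequences were not used here.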

Additional observations from a re-analysis of the deposited data

Results flagged for a closer look

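The change from a strain to its (hsf1) counterpart differed between cells without and with HAC1 for 53 of 53 small-subunit genes. This was limma's interaction test, and each change was lower in cells without HAC1. Of all 5449 genes, 1945 were called higher and 1850 lower in the same test. Whether (hsf1) is the same alteration in both is not given. Among the named genes the difference on the log2 scale was -3.15 for RPS9A, -3.06 for RPS22B, -2.94 for ASC1, -2.77 for RPS24B and -1.40 for RPS31. It was smallest for RPS29A (-1.08), RPS25A (-1.07), RPS25B (-0.74), RPS23A (-0.64) and RPS30A (-0.55). RPS23A and RPS30A were read on _s_at probe sets and RPS29A on an _x_at probe set. Groups of 3 arrays are too small for a test of single outlying arrays.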

How the results depend on the processing

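The counts of genes higher and lower kept their direction under every alternative run: other scaling between arrays, other probe sets, dim genes left out, another variance model, array weights, only the compared strains, each array left out, and a replicate block. The median change between WT(hsf1) and WT was 1.24 with the lowest-mean probe set and also with _at probe sets alone, an alternative chosen after seeing the data. With _at probe sets alone the median was -1.79 between hac1∆(hsf1) and WT(hsf1) and -2.05 for the interaction. Array weights gave 2 genes lower and 11 unequal pairs between hac1∆ and WT. Leaving out single arrays gave 27 to 37 genes higher and 1 to 3 lower, and 3 to 7 unequal pairs, in that comparison. Unequal pairs between hac1∆(hsf1) and hac1∆ ranged from 7 to 13, and the median between hac1∆(hsf1) and WT from -0.62 (without WT replicate 2) to -0.46. Between hac1∆ and WT leaving out single arrays changed the sign of 8 of the 53 genes, none of them called with all arrays. Of the named ones, RPS10A was 0.01 after quantile normalisation and ranged from -0.17 to 0.08, RPS23A from -0.07 to 0.04 and RPS26B from -0.08 to 0.12 when single arrays were left out. RPS18A minus RPS18B between WT(hsf1) and WT was -0.12 with the mean of probe sets and -0.44 with the lowest or the _at probe set. The cause was not tested. With the replicate block no gene call changed, and 19 pairs were called among the strains, 6 between hac1∆ and WT, 13 between WT(hsf1) and WT and 10 between hac1∆(hsf1) and hac1∆. Fitting only the strains compared gave 28 genes higher between hac1∆ and WT.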

Other observations

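In the gene order of the reference, 8 pairs of direct neighbours hold a small-subunit gene and another ribosomal protein gene. RPS14B and RPS22A lie side by side and rose alike between WT(hsf1) and WT, by 1.51 and 1.56, whereas between hac1∆(hsf1) and hac1∆ RPS14B changed by -0.58 and RPS22A by -1.18. RPS16B and its large-subunit neighbour RPL13A changed by 1.70 and 1.75 in the first comparison and by -0.72 and -0.96 in the second. RPS22A also borders RPL39, which changed by 1.19 and -0.39. The difference within these neighbour pairs was not tested.

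The genes whose pattern over the 12 arrays was most opposite to the mean of the small-subunit genes were TSL1 (Pearson r = -0.9958) and GDB1 (-0.9950), of trehalose synthesis and glycogen breakdown, AAD6 (-0.9931) and AAD4 (-0.9927), of the aryl-alcohol dehydrogenase family, and HBT1 (-0.9924). They are given as a description, chosen by the size of this coefficient.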
